A study of Mus musculus with 14 samples.

Results

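Of 705361 deposited regions of open chromatin, 24627 on the 19 autosomes had a mean deposited value of at least 100 over all libraries, and 895 of these were more open in wild-type MPP3 than in wild-type LT-HSC. These 895 regions are the members described here. They were selected on measured wild-type values: both MPP3 wild-type libraries had to exceed both LT-HSC wild-type libraries, and the mean log2 difference had to be at least 1. The wild-type difference, a median of 1.29 on the log2 scale and from 1.00 to 3.88, is therefore the rule and not a result. The tests below use only the 10 libraries of mutant cells, which took no part in the choice, and ask whether the same regions also separated MPP3 from LT-HSC there.

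The series is a mouse ATAC-seq study of 14 libraries, in which a transposase cuts and tags accessible DNA. Whole marrow (1000000 cells) of C57BL/6J donors was given to young, lethally irradiated CD45.1 recipients. All recipients received poly(I:C) 4 weeks after the transplant and tamoxifen 4 weeks later, wild-type controls included, with harvest another 4 weeks on. Donors called WT below were WT (Mx-Cre). Single mutants, called Dnmt3a and Npm1, carried Dnmt3a-flR878H/+ and, separately, Npm1-frt/+. Double mutants, called Dnmt3a;Npm1, carried both (Dnmt3a-flR878H/+;Npm1-frt/+). LT-HSC and MPP3 were sorted from each by FACS. Of the 8 groups, 6 hold 2 libraries, lettered A and B. LT-HSC Dnmt3a and MPP3 Dnmt3a;Npm1 hold 1 library each (B). Mx-Cre is driven by an interferon-inducible promoter that is active in many blood cells and in other tissues, so recombination is not limited to the sorted populations. The host cells that remained after irradiation are not described by the labels, which also leave unsaid whether libraries A and B are different animals. The p-values below therefore reflect only how much these libraries vary, which may be technical.

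LT-HSC are the long-term repopulating stem cells at the top of blood formation, and MPP3 are multipotent progenitors below them that are biased toward granulocytes and macrophages. Accessible distal elements and promoters mark the regulatory DNA a cell can use, and myeloid progenitors are known for elements bound by PU.1, C/EBP and RUNX factors near genes of neutrophil granules and cytokine signalling. Dnmt3a encodes a DNA methyltransferase and Npm1 a nucleolar protein, and mutations of both are frequent in acute myeloid leukaemia. In a bulk sample, a larger share of cells with an open site and a more open site in each cell cannot be told apart.

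Deposited values were scaled so that each library's median over the 24627 regions was 200, and are called normalised signal. Differences are on the log2 scale of normalised signal plus 4, MPP3 minus LT-HSC unless stated. Total deposited signal was 14683769 to 28748205 per library. The share of a library's signal inside the tested regions, a measure of enrichment, was 15.1% to 50.7%. It was lowest in the LT-HSC Npm1 libraries (18.8% in A and 15.1% in B). The main result is therefore also given without them, as a mean over the other mutant genotypes.

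Few members, 86, overlapped a promoter window, here 250 bases before to 50 bases after a RefSeq start site. Shown first are 5 of these windows, chosen because granule, myeloid and cell-type-separating members lie on them, from the GRCm38.p6 (mm10) RefSeq table, 5′ to 3′ on the gene's strand. Mpo encodes myeloperoxidase and Ctsg the protease cathepsin G, both stored in primary neutrophil granules. Igsf6 encodes an immunoglobulin-superfamily protein of myeloid cells, Gm36301 is a long noncoding RNA gene, and Cd244a encodes a receptor of the SLAM family. Cd244a was added after its values were seen. Capitals mark matches, on either strand, to the PU.1 core GAGGAA, the C/EBP letters TTGCNNAA, the RUNX letters TGTGGT, the GATA-factor letters AGATAA, the AP-1 letters TGANTCA or the ETS core CCGGAA.
Mpo (chr11:87793534-87793833, plus strand): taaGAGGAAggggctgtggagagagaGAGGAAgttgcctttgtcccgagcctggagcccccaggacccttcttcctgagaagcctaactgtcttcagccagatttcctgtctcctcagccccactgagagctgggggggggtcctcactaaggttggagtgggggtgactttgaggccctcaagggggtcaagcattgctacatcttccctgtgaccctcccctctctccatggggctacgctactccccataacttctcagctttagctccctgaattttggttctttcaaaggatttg
Ctsg (chr14:56102525-56102824, minus strand): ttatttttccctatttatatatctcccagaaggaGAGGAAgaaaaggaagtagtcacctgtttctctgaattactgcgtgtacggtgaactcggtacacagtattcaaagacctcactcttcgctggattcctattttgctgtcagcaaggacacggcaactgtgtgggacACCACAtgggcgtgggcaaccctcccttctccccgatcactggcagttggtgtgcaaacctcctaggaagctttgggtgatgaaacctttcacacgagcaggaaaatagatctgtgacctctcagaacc
Igsf6 (chr7:121074481-121074780, minus strand): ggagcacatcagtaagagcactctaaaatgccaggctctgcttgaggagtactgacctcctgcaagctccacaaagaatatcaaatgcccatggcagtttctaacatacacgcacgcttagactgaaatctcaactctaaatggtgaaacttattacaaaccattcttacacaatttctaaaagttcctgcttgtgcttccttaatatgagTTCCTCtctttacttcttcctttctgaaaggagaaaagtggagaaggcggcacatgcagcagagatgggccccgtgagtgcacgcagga
Gm36301 (chr6:115519452-115519751, minus strand): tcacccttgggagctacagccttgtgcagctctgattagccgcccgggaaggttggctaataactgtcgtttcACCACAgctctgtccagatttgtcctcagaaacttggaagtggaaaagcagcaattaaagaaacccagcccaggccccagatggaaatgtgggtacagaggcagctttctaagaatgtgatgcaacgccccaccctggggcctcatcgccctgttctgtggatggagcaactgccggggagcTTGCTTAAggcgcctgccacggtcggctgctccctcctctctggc
Cd244a (chr1:171558943-171559242, plus strand): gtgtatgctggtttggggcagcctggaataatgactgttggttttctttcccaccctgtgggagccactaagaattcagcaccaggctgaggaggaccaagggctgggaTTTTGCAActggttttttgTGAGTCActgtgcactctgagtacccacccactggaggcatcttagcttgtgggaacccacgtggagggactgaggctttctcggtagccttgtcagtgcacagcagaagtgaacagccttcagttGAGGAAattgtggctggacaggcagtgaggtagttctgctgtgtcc

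The Mpo window holds 2 PU.1 cores near its 5′ end and none of the other motifs. The Ctsg window holds 1 PU.1 core and 1 RUNX match, read on the opposite strand as ACCACA. Igsf6 has 1 PU.1 core on the opposite strand, Gm36301 has 1 RUNX and 1 C/EBP match, and Cd244a has PU.1, C/EBP and AP-1 matches, 1 of each. Over all 93 promoter windows that overlapped a member, GAGGAA was present in 35.5%, against 26.2% of the 13252 windows overlapping any tested region and 28.2% of all 31396 windows. TGTGGT was present in 22.6%, against 11.8% and 16.7%, and TGANTCA in 12.9%, against 4.32% and 7.84%. The C/EBP letters were found in 12.9%, against 7.49% and 10.9%, and the GATA letters in 11.8%, against 5.25% and 11.2%. CCGGAA, in contrast, was present in 14.0% of member windows, against 27.8% and 15.1%. Over the 61 windows that overlapped the opposite set, regions more open in wild-type LT-HSC, the shares were 37.7% for GAGGAA, 14.8% for TGTGGT, 9.84% for TGANTCA, 4.92% for the C/EBP letters, 11.5% for the GATA letters and 8.2% for CCGGAA. The PU.1 and GATA letters were thus about as frequent there as in member windows. In both sets TGANTCA lay above, and CCGGAA below, its share of the windows overlapping any tested region. These shares describe letters in a window and were not tested, and a gene with several start sites contributes several windows.

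Across the mutant libraries the members as a group lay higher in MPP3 than in LT-HSC, but no single member passed the adjusted threshold. In LT-HSC their median normalised signal was 91.0 for Dnmt3a B, 135 and 149 for Npm1 A and B, and 98.4 and 107 for Dnmt3a;Npm1 A and B. For MPP3 the medians were 150 and 146 with Dnmt3a (A and B), 188 and 178 with Npm1 (A and B) and 142 with Dnmt3a;Npm1 (B). Thus within each mutant genotype every MPP3 library had a higher member median than every LT-HSC library, while LT-HSC Npm1 B lay above MPP3 Dnmt3a B and MPP3 Dnmt3a;Npm1 B. The wild-type libraries, which chose the members, had medians of 73.2 and 58.8 in LT-HSC and 177 and 167 in MPP3. The 369 regions chosen the opposite way in wild-type cells had medians of 140 to 163 in the mutant LT-HSC libraries and 84.2 to 124 in the mutant MPP3 libraries.

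**Figure D1:**
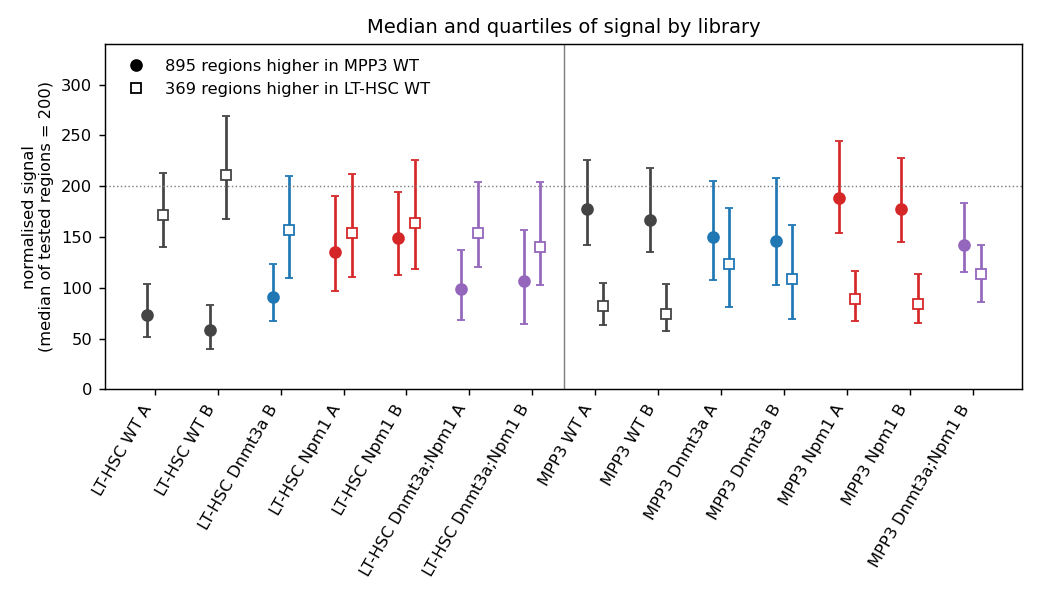
Median (symbol) and quartiles (bars) of normalised signal in each library, scaled to a median of 200 over tested regions (dotted line), for the 895 regions higher in MPP3 WT (filled circles) and the 369 regions higher in LT-HSC WT (open squares); colour marks genotype (grey WT, blue Dnmt3a, red Npm1, purple Dnmt3a;Npm1). Filled circles sit at 91.0 to 149 in the mutant LT-HSC libraries and at 142 to 188 in the mutant MPP3 libraries, and the WT libraries (73.2 and 58.8 against 177 and 167) chose the regions.

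In one model over the 6 mutant groups (limma), the MPP3 minus LT-HSC difference averaged over the 3 genotypes had a median of 0.54 over members (quartiles 0.27 and 0.84), against 0.08 over all tested regions and -0.56 over the opposite set. It was above 0 in 791 of 895 members (88.4%), against 58.3% of all tested regions. These counts lean on the filter: 546 members had a mean deposited value under 100 over the LT-HSC libraries and passed through MPP3, where they are high. Of those 546, 519 (95.1%) were above 0, as were 90.2% of all 2020 tested regions with so low an LT-HSC mean. Of the other 349 members, a split made after seeing the data, 272 (77.9%) were above 0 with a median of 0.37, against 55.4% and a median of 0.05 over all tested regions with an LT-HSC mean of at least 100. At an adjusted p under 0.05, 0 members were higher and 0 lower, as were 0.0% of all tested regions in each direction. At an unadjusted p under 0.05, 313 members (35.0%) were higher, against 6.57% of all tested regions, and 5 (0.559%) were lower, against 4.28%. Of the 313, 220 were among the 546 members with an LT-HSC mean under 100. Of all 2020 tested regions with so low a mean, 395 were higher at that threshold. The remaining 93 were among the other 349 members, against 1223 of all 22607 tested regions with an LT-HSC mean of at least 100. A difference of at least 1 was present in 145 members (16.2%), against 1.13% of all tested regions. That share was not split by the filter. Leaving out both LT-HSC Npm1 libraries takes the Npm1 genotype out of the average, which then covers Dnmt3a and Dnmt3a;Npm1. Each of these has a single library in 1 cell type. The median over members was then 0.61, with 794 members above 0, 0 called and 209 higher at an unadjusted p under 0.05. Likewise, leaving out LT-HSC Dnmt3a B or MPP3 Dnmt3a;Npm1 B gives an average over the other genotypes. When MPP3 Dnmt3a A was left out, 10 members were called higher, and when LT-HSC Dnmt3a B was left out, 2. With each library scaled to its total signal instead, 74 members were called higher (8.27%, against 0.491% of all tested regions) and 0 lower.

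**Figure D2:**
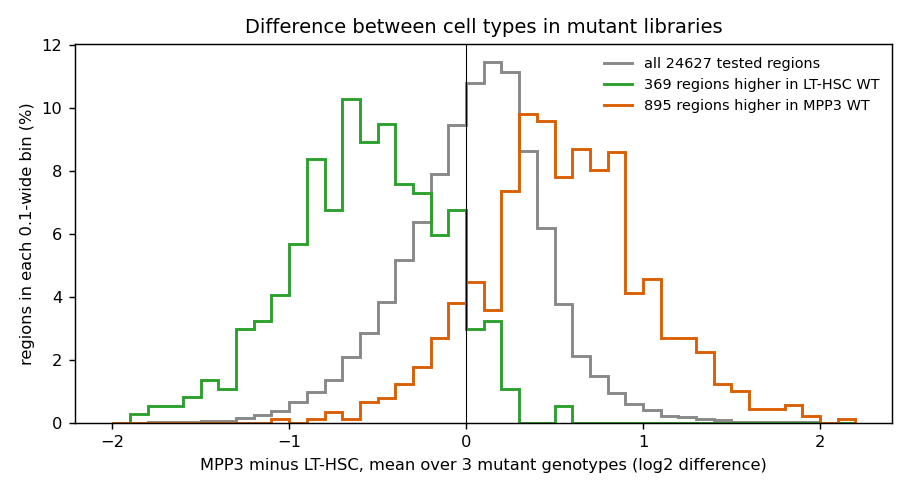
Share of regions (percent, in bins 0.1 wide) by their MPP3 minus LT-HSC log2 difference averaged over the 3 mutant genotypes, for the 895 members, the 369 regions of the opposite set and all 24627 tested regions. The members' median is 0.54, that of the opposite set -0.56 and that of all tested regions 0.08.

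Library by library, 68 members (7.6%) had all 5 mutant MPP3 libraries above all 5 mutant LT-HSC libraries, against 1.44% of all tested regions. None had all 5 below, against 1.06%. A difference above 0 in each of the 3 genotypes was seen in 480 members (53.6%), against 14.3% of all tested regions. These counts also lean on the filter and were not split by it. Among the 68 were regions at Arhgap26, Ap3s1, Il17ra, Rgs3, Fndc3b, Lrrfip1, Gm36301, Vps13d and 2 regions at Cd244a. Of these 68, 7.35% lay within 1000 bases of an end of a protein-coding gene, and of the other 827 members 14.8%, a difference that was not tested.

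Members with a larger wild-type difference also had a larger difference in mutant cells. In 4 bins of rising wild-type difference, with medians of 1.11, 1.35, 1.66 and 2.25 and 416, 208, 192 and 79 members, the median mutant difference was 0.45, 0.54, 0.64 and 0.82. In each bin it was thus below the wild-type median. How much of that gap follows from choosing the members on the 4 wild-type libraries was not tested. The bins also lean on the filter on low values and were not split by it. The 546 members with an LT-HSC mean under 100 had a median mutant difference of 0.69, and the other 349 had 0.37. How much of the rise over the bins follows from the filter was not tested.

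**Figure D3:**
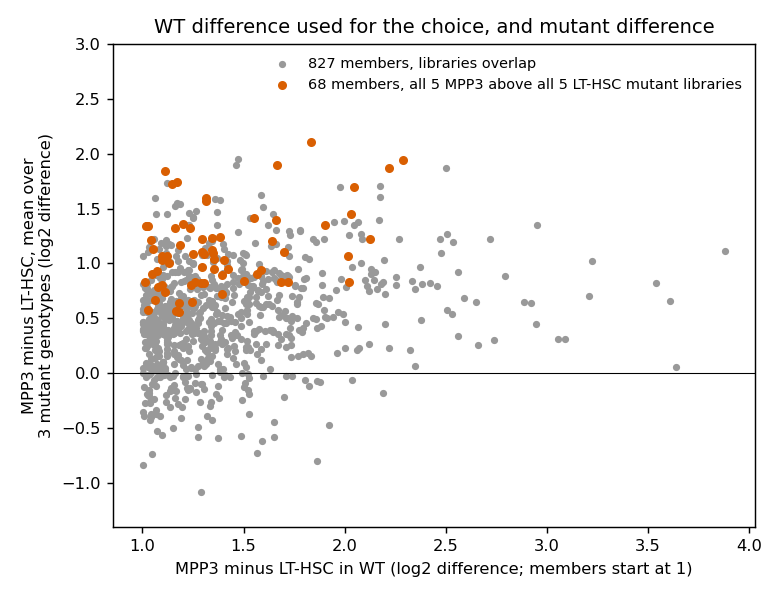
Each point is a member, by its MPP3 minus LT-HSC log2 difference in WT libraries, which chose it (x axis, from 1), and its difference averaged over the 3 mutant genotypes (y axis). The 68 members whose 5 mutant MPP3 libraries all exceed the 5 mutant LT-HSC libraries (orange) make up 6.25% to 9.13% of members in each of 4 bins of WT difference, and 791 of the 895 points lie above 0.

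Set against the mean of their own cell type's wild-type libraries, as a description, members differed more on the LT-HSC side. In LT-HSC the median log2 difference from wild type was 0.48 for Dnmt3a B, 1.00 and 1.13 for Npm1 A and B, and 0.59 and 0.62 for Dnmt3a;Npm1 A and B. All 5 mutant LT-HSC libraries were thus above wild type, where the members had been chosen to be low. For MPP3 the medians were -0.24 and -0.27 with Dnmt3a (A and B), 0.14 and 0.07 with Npm1 (A and B) and -0.26 with Dnmt3a;Npm1 (B). No test is given for these values, since the wild-type libraries chose the members.

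**Figure D4:**
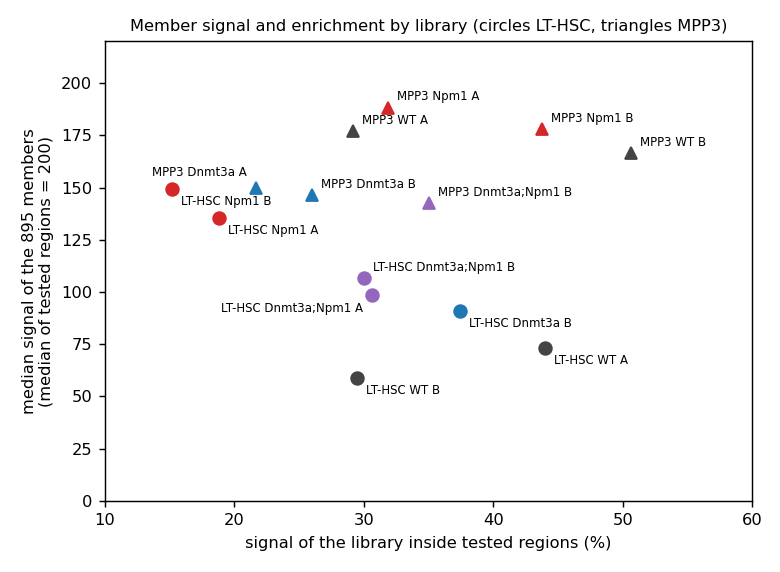
Median normalised signal of the 895 members (y axis) against the percent of each library's signal that lies inside tested regions (x axis); circles are LT-HSC and triangles MPP3 libraries, in grey for WT, blue for Dnmt3a, red for Npm1 and purple for Dnmt3a;Npm1. The 2 LT-HSC Npm1 libraries have the lowest shares (18.8% and 15.1%) and the highest LT-HSC member medians (135 and 149).

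The LT-HSC Npm1 libraries had both the lowest share of signal in tested regions and the highest member medians among LT-HSC libraries, 135 and 149. With the share of signal as a covariate, the members' median difference over the mutant genotypes was 0.60, and 200 members were higher at an unadjusted p under 0.05. Whether enrichment had a part in the levels of single members was not tested.

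Within Npm1 cells, with 2 libraries of each cell type, 23 members (2.57%) were called higher in MPP3 and 4 (0.447%) lower. Over all tested regions the shares were larger, 8.26% higher and 2.87% lower. The members' median difference was 0.46 against 0.25 over all tested regions, and 668 members (74.6%) were above 0, against 61.5%. With TMM scaling 4 members were called higher (0.447%, against 2.38% of all tested regions) and 6 lower (0.67%, against 3.45%). With library totals 537 were called higher (60%, against 52.7%) and 1 lower (0.112%, against 0.556%). With the share of signal as a covariate, 0 members and 0 of all tested regions were called in either direction. Without MPP3 Dnmt3a A or B, 63 and 67 members were called higher, without LT-HSC Npm1 A or B 3 and 0, and without MPP3 Npm1 A or B 1 and 0. The count thus depends on scaling and on single libraries. For fits without 1 library, in any comparison, the share called over all tested regions was not computed, so those counts have no background. The members' median was 0.24 with TMM, 1.39 with library totals, 0.65 with the covariate and 2.99 after background subtraction.

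The call of smallest adjusted p, named after its values were seen, lay at Pde4b, a cyclic AMP phosphodiesterase gene. The region (chromosome 4, 102623689 to 102625528) had normalised signals of 115 and 118 in LT-HSC Npm1 A and B and 498 and 571 in MPP3 Npm1 A and B. The MPP3 libraries were far above the LT-HSC libraries, a difference of 2.15 (adjusted p = 0.0101). In Dnmt3a the region had 252 in LT-HSC and 368 and 288 in MPP3 (A and B). In Dnmt3a;Npm1 it had 132 and 345 in LT-HSC (A and B) and 435 in MPP3. Regions at Ptpn11, a phosphatase gene of cytokine receptor signalling, Prdm1, a differentiation repressor gene, and Itgb5, an integrin gene, were called higher as well, with differences of 1.76, 1.33 and 1.49 (adjusted p = 0.0287, 0.0312 and 0.0478, limma). The 4 members called lower lay at Ifi30, Hand2, Cilp2 and Alpk3.

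Within Dnmt3a cells and within Dnmt3a;Npm1 cells, where one arm has a single library assumed to vary like the others, 0 members were called in either direction. The background was 0.0% higher in both genotypes. The members' median differences were 0.63 in Dnmt3a and 0.58 in Dnmt3a;Npm1, against -0.15 and 0.09 over all tested regions. With library totals the Dnmt3a median over members was 0.06. In Dnmt3a, 738 members (82.5%) were above 0 against 40.3% of all tested regions, and in Dnmt3a;Npm1, 726 (81.1%) against 58.3%. At an unadjusted p under 0.05, 152 members (17.0%) were higher in Dnmt3a MPP3, against 3.25%, and 97 (10.8%) in Dnmt3a;Npm1 MPP3, against 1.57%. Without MPP3 Dnmt3a B, 7 members were called higher in Dnmt3a.

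Across the 895 members, which share libraries within a genotype and are not independent, the Pearson correlation of the differences was 0.026 between Npm1 and Dnmt3a, 0.327 between Npm1 and Dnmt3a;Npm1, and 0.155 between Dnmt3a and Dnmt3a;Npm1. Over all tested regions these correlations were -0.227, 0.282 and 0.107, in the same order. The sign was the same in 65.8%, 71.8% and 73.4% of members, against 38.4%, 62.1% and 49.4% of all tested regions.

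The test of the difference between genotypes gave few member calls. For Npm1 against Dnmt3a, 0 members were called higher, against 3.2% of all tested regions, and 9 (1.01%) lower, against 1.51%. The 9 became 16 and 23 without MPP3 Dnmt3a A or B, 0 without LT-HSC Npm1 B or MPP3 Npm1 B, 4 without LT-HSC Npm1 A, MPP3 Npm1 A or LT-HSC Dnmt3a;Npm1 B, and 3 without LT-HSC Dnmt3a;Npm1 A. The median over members was -0.19, against 0.40 over all tested regions, and its sign turned to 1.31 with library totals and to 0.13 with the share of signal as a covariate. For Npm1 against Dnmt3a;Npm1, 0 members were called in either direction, against 0.0% of all tested regions higher. At an unadjusted p under 0.05, 8 members (0.894%) were higher, against 5.87%, and 14 (1.56%) lower, against 2.81% (limma). Its median over members was -0.14, and 0.64 with library totals.

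The 3 calls of smallest p in the first of these tests had high LT-HSC signal in Npm1 and low LT-HSC signal in the single Dnmt3a library. Pik3r6, a regulatory subunit gene of phosphoinositide 3-kinase gamma, held a region (chromosome 11, 68502408 to 68504226) with LT-HSC signals of 305 and 273 (Npm1) and 31.8 (Dnmt3a). In MPP3 the same region had 146 and 136 in Npm1 and 205 and 288 in Dnmt3a, so the order of the cell types was opposite in the 2 genotypes. The difference between genotypes was -3.80 (SE 0.74, adjusted p = 0.0193). At Hand2, a developmental transcription factor gene, the promoter-overlapping region (chromosome 8, 57320835 to 57322785) had LT-HSC signals of 325 and 341 (Npm1) and 91.8 (Dnmt3a) and MPP3 signals of 124 and 96.0 (Npm1) and 320 and 206 (Dnmt3a). It too was lower in MPP3 in Npm1 and higher in MPP3 in Dnmt3a (-3.02, SE 0.66, adjusted p = 0.0268). At Zc3h7a, a zinc finger RNA-binding protein gene, the region (chromosome 16, 11143937 to 11144403) had some of the highest levels of any member, with LT-HSC signals of 2289 and 2375 (Npm1) and 826 (Dnmt3a) and MPP3 signals of 1985 and 1579 (Npm1) and 2367 and 1694 (Dnmt3a). Its difference between genotypes was -1.67 (SE 0.40, adjusted p = 0.0319). None of these 3 passed the threshold without LT-HSC Npm1 B (adjusted p = 0.0794, 0.0906 and 0.0861), without MPP3 Npm1 B (0.132, 0.176 and 0.197) or with the share of signal as a covariate (limma).

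Comparisons of genotypes within a cell type gave members above the level of all regions on the side of Npm1. In MPP3, Npm1 against Dnmt3a had a median of 0.40 over members and 0.18 over all tested regions. There, 0 members were called in either direction, against 0.0% higher and 0.0122% lower, and 93 (10.4%) were higher at an unadjusted p under 0.05, against 8.65%. Without MPP3 Dnmt3a A or B, 5 and 20 members were called higher. The 3 members of smallest p lay at Acss1, an acetyl-CoA synthetase gene, Gfod1 and Ubash3b, a phosphatase gene that dampens receptor signalling. At Acss1 (chromosome 2, 150673641 to 150674570) signals were 266 and 343 in MPP3 Npm1 and 68.3 and 46.3 in MPP3 Dnmt3a, with no overlap (2.34, SE 0.60, adjusted p = 0.204). At Ubash3b (chromosome 9, 41070540 to 41071387) they were 251 and 240 against 55.3 and 69.5 (1.92, SE 0.50, adjusted p = 0.211).

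In LT-HSC, Npm1 against Dnmt3a;Npm1 gave 7 members called higher (0.782%) against 0.179% of all tested regions, and 0 lower against 0.402%. At an unadjusted p under 0.05, 185 members (20.7%) were higher, against 6.91%. The median was 0.51 over members and -0.12 over all tested regions, and -0.24 over members with library totals. With TMM scaling, or the share of signal as a covariate, 0 members were called higher, as were 0 of all tested regions. The count was 47 and 45 without MPP3 Dnmt3a A or B, 44 without LT-HSC Dnmt3a;Npm1 A, and 0 without LT-HSC Dnmt3a;Npm1 B or any 1 of the 4 Npm1 libraries. The 7 regions lay nearest Osbpl8, Dock2, Ccdc88c, Dgkz, Ctsd, Arhgap26 and Acot7. Near Ctsd, the gene of the lysosomal protease cathepsin D, LT-HSC signals were 236 and 239 (Npm1 A and B) and 30.3 and 54.6 (Dnmt3a;Npm1 A and B). The 2 genotypes did not overlap there (2.43, SE 0.50, adjusted p = 0.0448). Inside Ccdc88c (chromosome 12, 100984784 to 100985910), signals were 226 and 231 against 38.9 and 24.7 (2.73, SE 0.50, adjusted p = 0.0448).

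Granule protein genes held members at the highest rate of any gene list examined. Of 31 tested regions at genes of neutrophil granules and neutrophil differentiation, 8 (25.8%) were members, against 3.63% of all tested regions, a share that the wild-type rule fixes. In the mutant libraries the differences of the 8 were above 0, with a median of 0.82, 4 were higher at an unadjusted p under 0.05 and 0 were called. Over all 895 members 88.4% were above 0 and 35.0% higher at that threshold, against 58.3% and 6.57% of all tested regions. Member counts here and in the gene lists below were not split by the filter on low values. The widest member of the granule list covered part of Mpo and the neighbouring peroxidase gene Lpo (chromosome 11, 87803850 to 87810872). Its normalised signals in LT-HSC were 324 for Dnmt3a B, 570 and 682 for Npm1 A and B, and 302 and 124 for Dnmt3a;Npm1 A and B. For MPP3 they were 1148 and 527 with Dnmt3a (A and B), 1365 and 1310 with Npm1 (A and B) and 492 with Dnmt3a;Npm1 (B). Within each genotype every MPP3 library was higher, but LT-HSC Npm1 overlapped MPP3 Dnmt3a B and MPP3 Dnmt3a;Npm1 B (1.22, SE 0.26, adjusted p = 0.253).

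The region over the Mpo promoter shown above (chromosome 11, 87793148 to 87794349) had LT-HSC signals of 64.4 (Dnmt3a), 180 and 127 (Npm1) and 73.5 and 7.05 (Dnmt3a;Npm1). Its MPP3 signals were 176 and 139 (Dnmt3a), 292 and 299 (Npm1) and 146 (Dnmt3a;Npm1). Again MPP3 was higher within Npm1 and within Dnmt3a;Npm1 and higher in both Dnmt3a libraries, with LT-HSC Npm1 A overlapping (1.51, SE 0.45, adjusted p = 0.322). Another Mpo region, from 87801994 to 87803734, had a difference of 0.33.

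The Ctsg promoter region (chromosome 14, 56101605 to 56102874) had the largest wild-type difference of all members, 3.88. Its mutant LT-HSC signals were 19.7 (Dnmt3a), 78.8 and 175 (Npm1) and 54.0 and 24.7 (Dnmt3a;Npm1). The MPP3 signals were 176 and 2.44 (Dnmt3a A and B), 313 and 258 (Npm1) and 118 (Dnmt3a;Npm1). One MPP3 library, Dnmt3a B, was thus below every mutant LT-HSC library, and the difference was 1.11 with an SE of 0.75. A second Ctsg region 2427 bases away from the gene (56105001 to 56106120) showed the same library low, at 64.6 against 179 in Dnmt3a A, and a difference of 0.82 (SE 0.37, adjusted p = 0.435). Near Fcnb, a granule ficolin gene, the difference was 0.83, in Prtn3, the proteinase 3 gene, 0.27, and near Serpinb1a, an inhibitor of granule proteases, 0.39.

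Monocyte and dendritic cell genes held 4 members among 50 tested regions (8%), with mutant differences all above 0 (88.4% over all members). They were 1.03 near Fcgr4, an Fc receptor gene, 0.74 in Cx3cr1, a chemokine receptor gene, 0.56 at the Igsf6 promoter and 0.58 in a region over Csf1r and Hmgxb3. Csf1r encodes the receptor for macrophage colony-stimulating factor. At Igsf6 (chromosome 7, 121074120 to 121076151) the mutant LT-HSC signals were 79.0 (Dnmt3a), 200 and 276 (Npm1) and 116 and 133 (Dnmt3a;Npm1). The MPP3 signals were 268 and 218 (Dnmt3a), 238 and 196 (Npm1) and 145 (Dnmt3a;Npm1). LT-HSC Npm1 A lay inside the range of the MPP3 libraries and LT-HSC Npm1 B above it, and the Npm1 difference was -0.12, against 1.57 in Dnmt3a.

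Transcription factor genes of myeloid differentiation held 6 members among 208 tested regions (2.88%), close to the 3.63% of all tested regions. Their median mutant difference was 0.52 and 5 were above 0 (88.4% over all members). In Runx1, the gene of a core stem and progenitor factor, the region (chromosome 16, 92715431 to 92716391) had 43.2 to 168 over the mutant LT-HSC libraries, with a median of 96.9, and 115 to 272 over the mutant MPP3 libraries, with a median of 151 (0.99, SE 0.33, adjusted p = 0.358). A region 63263 bases from Cebpb, a factor of granulocyte and macrophage genes, had a difference of 0.65 (SE 0.23). Near Spi1, which encodes PU.1, a region 813 bases from the gene (chromosome 2, 91080724 to 91081561) had LT-HSC signals of 54.9 (Dnmt3a), 162 and 116 (Npm1) and 77.8 and 115 (Dnmt3a;Npm1). MPP3 held 137 and 126 (Dnmt3a), 126 and 148 (Npm1) and 125 (Dnmt3a;Npm1). The MPP3 libraries were near each other while LT-HSC spread from below to above them, and the difference was 0.53 (SE 0.33, adjusted p = 0.567). The Etv6 member was the list's one below 0, at -0.36.

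**Figure D5:**
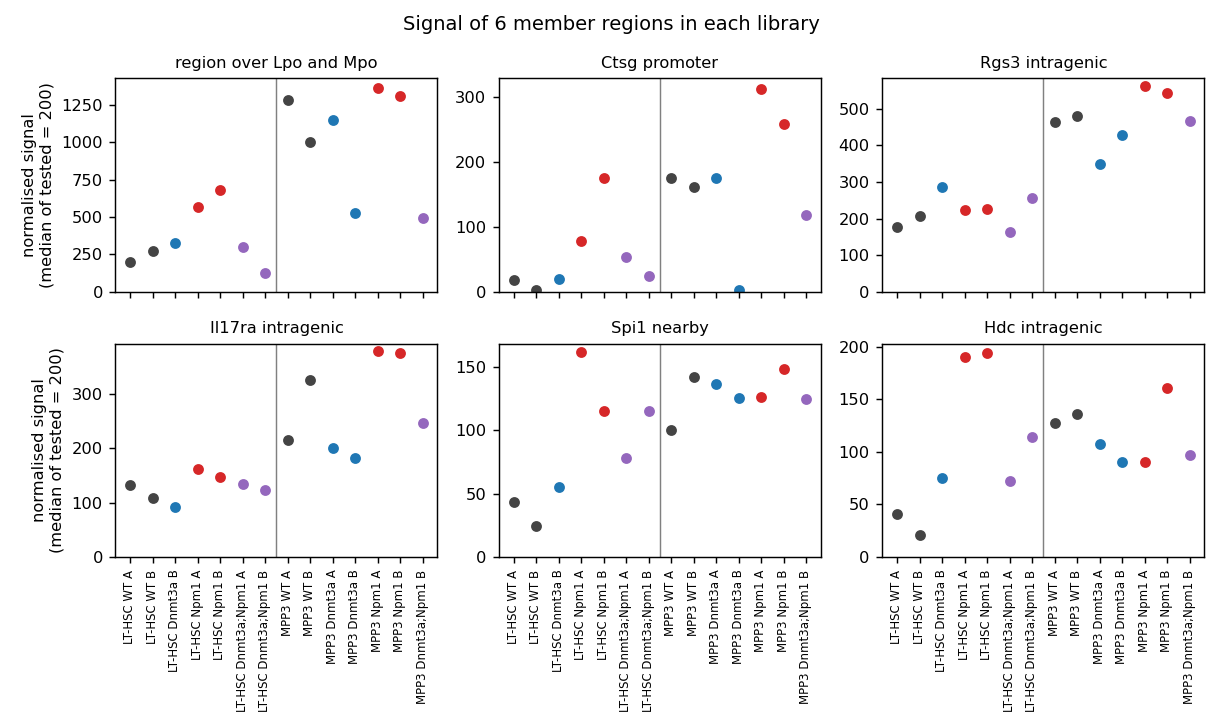
Normalised signal of 6 members in each library (1 point per library, LT-HSC left of the line and MPP3 right; grey WT, blue Dnmt3a, red Npm1, purple Dnmt3a;Npm1). In Rgs3 and Il17ra all mutant MPP3 points lie above all mutant LT-HSC points, at Ctsg MPP3 Dnmt3a B is at 2.44, and at Spi1 and Hdc LT-HSC Npm1 reaches or passes the MPP3 levels.

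Cytokine receptor and signalling genes held 7 members among 139 tested regions (5.04%). All 7 had mutant differences above 0, against 88.4% of all members and 58.3% of all tested regions. In 2 of them the cell types did not overlap, against 7.6% of all members and 1.44% of all tested regions. In Il17ra, the receptor gene for interleukin 17, the region (chromosome 6, 120473276 to 120474226) had 91.8, 162, 146, 135 and 124 in LT-HSC Dnmt3a B, Npm1 A, Npm1 B, Dnmt3a;Npm1 A and Dnmt3a;Npm1 B. MPP3 had 200 and 183 (Dnmt3a), 379 and 377 (Npm1) and 247 (Dnmt3a;Npm1). The lowest MPP3 library lay above the highest LT-HSC library (1.07, SE 0.25, adjusted p = 0.276), and in Npm1 alone the difference of 1.27 was called (adjusted p = 0.0412). In Rgs3, a regulator of G protein signalling, the region (chromosome 4, 62660442 to 62662836) had LT-HSC signals of 286 (Dnmt3a), 222 and 225 (Npm1) and 162 and 256 (Dnmt3a;Npm1). Its MPP3 signals were 350 and 429 (Dnmt3a), 562 and 543 (Npm1) and 467 (Dnmt3a;Npm1). Here too the cell types did not overlap (0.97, SE 0.22, adjusted p = 0.253), and the Npm1 difference of 1.29 was called (adjusted p = 0.0249). Both Npm1 calls are among those lost with the share of signal as a covariate.

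Lymphoid genes held 6 members among 66 tested regions (9.09%), with a median mutant difference of 0.53 and 5 above 0 (88.4% over all members). The exception, at Notch1, a receptor gene of T cell fate, had -0.49 (SE 0.36), and Igll1, a surrogate light chain gene, had 0.45. Ikzf1, the Ikaros gene, which acts in lymphoid and myeloid progenitors, held 2 of them. The first (chromosome 11, 11729798 to 11731661) had 96.0 to 192 in mutant LT-HSC and 115 to 375 in mutant MPP3 (0.75, SE 0.29, adjusted p = 0.403), and MPP3 Dnmt3a A was the only MPP3 library inside the LT-HSC range. The second (from 11762987 to 11763915) was called higher in MPP3 in Npm1 (1.54, SE 0.45, adjusted p = 0.0394). Regions nearest Lef1 and Bcl11a, 95371 and 11259 bases away, had differences of 0.77 and 0.61.

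Mast cell and basophil genes held 2 members of 9 tested regions, both in Hdc, the histidine decarboxylase gene, and neither was higher in mutant MPP3. At 126605540 to 126606716 on chromosome 2 mutant LT-HSC had 111 to 281 and mutant MPP3 65.9 to 158 (-0.39, SE 0.36). At 126601621 to 126602771 the ranges were 72.4 to 194 and 90.2 to 160 (-0.06, SE 0.34), and the sign of this value turned with library totals (0.12). The cell cycle list held 2 members of 67 regions, in Cdkn1a, the p21 gene (-0.26), and in Cdk6, a G1 kinase gene (0.23, with 13.0 in MPP3 Dnmt3a A and 200 to 298 in the other mutant MPP3 libraries). The Cdk6 value was 0.83 without MPP3 Dnmt3a A and -0.36 without MPP3 Dnmt3a B.

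3 lists held no member: erythroid and megakaryocyte genes (0 of 47 tested regions), stem cell genes (0 of 101) and genes of marrow niche and other non-blood cells (0 of 21). The median normalised signal of the stem cell list was 187 and 189 in LT-HSC WT and 170 and 156 in MPP3 WT. That of the granule list was 128 and 128 in LT-HSC WT and 172 and 185 in MPP3 WT. The granule list includes 8 members chosen on these WT libraries, so its WT values are no check of the sorted labels. Its 23 other regions had a median mutant difference of 0.25, with 16 above 0. In the mutant libraries the stem cell list ran from 172 to 197 in LT-HSC and from 151 to 176 in MPP3, and the granule list from 121 to 183 in LT-HSC and from 157 to 202 in MPP3. The niche list ran from 141 to 176 in mutant LT-HSC and from 142 to 185 in mutant MPP3. The monocyte list was 206 and 210 in LT-HSC Npm1, above the 149 to 178 of the other mutant LT-HSC libraries. It also lay above the 163 and 189 of MPP3 WT. Such a rise was not particular to monocyte genes. The lymphoid list was 186 and 203 in LT-HSC Npm1, against 141 to 170 in the other mutant LT-HSC libraries. The granule and cytokine lists were also higher in both LT-HSC Npm1 libraries than in those others. The stem cell list was lower, with 172 and 180 against 186 to 197, and the remaining lists overlapped. The part of other cells in the sorted populations was not tested.

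The members of smallest p outside these lists were mostly intragenic or distal. The smallest was in Arhgap26, a GTPase-activating protein gene (chromosome 18, 38938544 to 38939743). LT-HSC had 73.8 (Dnmt3a), 111 and 93.0 (Npm1) and 21.6 and 8.81 (Dnmt3a;Npm1). MPP3 had 145 and 237 (Dnmt3a), 386 and 313 (Npm1) and 175 (Dnmt3a;Npm1). All MPP3 libraries were higher, with a difference of 2.11 (SE 0.37, adjusted p = 0.243). In Ap3s1, an adaptor complex gene of vesicle sorting (chromosome 18, 46745012 to 46746353), LT-HSC had 42.2 to 127 and MPP3 132 to 431, again without overlap (1.57, SE 0.31, adjusted p = 0.243).

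Near AA467197 (chromosome 2, 122651678 to 122652951, 10602 bases from the gene) LT-HSC had 130 to 185 and MPP3 265 to 478. Its highest MPP3 signals were in Dnmt3a, 478 and 443, with 265 and 314 in Npm1 (1.22, SE 0.23, adjusted p = 0.243). The region over the Gm36301 promoter (chromosome 6, 115517658 to 115520005) had 94.0 to 355 in LT-HSC and 372 to 589 in MPP3 (1.23, SE 0.26, adjusted p = 0.253). In Rab7b, a gene of endosome traffic, 27.5 to 190 faced 165 to 278 (1.48, SE 0.29), with LT-HSC Npm1 A above the lowest MPP3 library. Differences of 1.87 near Map3k7cl, 1.47 in Fndc3b and 1.73 near BC005537 completed the 10 smallest p-values (adjusted p = 0.253 for each), and the BC005537 region was also called in Npm1 (2.25, adjusted p = 0.0254). The Cd244a promoter region shown above had 24.7 to 105 in mutant LT-HSC and 136 to 209 in mutant MPP3, without overlap (1.39, SE 0.43, adjusted p = 0.322).

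Some genes held several members. The 895 regions were assigned to 792 genes, of which 85 held 2 or more. Vps13d, a lipid transfer protein gene, was assigned 4. The first of these (chromosome 4, 144892044 to 144893304) covered promoter windows of Dhrs3. In Fndc3b, a fibronectin type III domain gene, 3 of its 5 tested regions were members, with mutant differences of 1.08 to 1.47. In Lrrfip1 3 of 10 were members, with 0.80 to 1.11. Members of 1 gene share its neighbourhood and are not independent.

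Not all members lay higher in mutant MPP3, and 104 had a difference below 0 or at 0. The most negative was in Zmiz1, a transcriptional coactivator gene (chromosome 14, 25497087 to 25499015). LT-HSC had 113 (Dnmt3a), 236 and 296 (Npm1) and 175 and 187 (Dnmt3a;Npm1), against 63.1 and 20.6 in wild type. MPP3 had 68.3 to 136 over the mutants and 98.7 and 91.8 in wild type, where the LT-HSC values are those the rule chose to be low. The difference was -1.08 (SE 0.32, adjusted p = 0.318). The next most negative were at the Pid1 promoter (-0.83), near Map10 (-0.80), in Casz1 (-0.74) and in Ifi30, a lysosomal thiol reductase gene (-0.73). At Ifi30 (chromosome 8, 70763367 to 70765035) LT-HSC Npm1 had 416 and 265 and MPP3 Npm1 43.5 and 105, a Npm1 difference of -2.23 that was called (adjusted p = 0.0163). Averaged over Dnmt3a and Dnmt3a;Npm1 alone, without both LT-HSC Npm1 libraries, its difference was 0.02.

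The mutant differences of the members with the largest wild-type differences varied. In Cers6, a ceramide synthase gene (wild-type difference 3.64, chromosome 2, 68907468 to 68908513), LT-HSC had 81.7 to 115 over the mutants and MPP3 had 13.0 and 172 (Dnmt3a), 182 and 215 (Npm1) and 107 (Dnmt3a;Npm1), with a difference of 0.06 (SE 0.52) that was 0.62 without MPP3 Dnmt3a A, the library at 13.0, 0.50 without LT-HSC Dnmt3a B, -0.50 without MPP3 Dnmt3a B and -0.02 without LT-HSC Npm1 B. The Cers6 value without LT-HSC Dnmt3a B is the average over Npm1 and Dnmt3a;Npm1. Near Gramd1b (3.61) the mutant difference was 0.66. At the edge of the rule, the members just inside, in Tcn2 and Tbc1d30, and the regions just outside, in Gm51701 and Fstl4, all had wild-type differences that rounded to 1.00, and their mutant differences were 0.00, 1.07, 0.17 and 0.62. A further 63 tested regions had a wild-type difference of at least 1 but overlapping wild-type libraries.

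Members lay away from gene ends. Only 127 of 895 (14.2%) were within 1000 bases of an end of a protein-coding gene, against 48.4% of all tested regions and 20.3% of the opposite set, and of the 857 outside chromosome 18, which has no promoter windows here, 10.0% overlapped one against 41.2% of all tested regions and 15.7% of the opposite set. Members had a median width of 1176 bases, against 1366 over all tested regions and 1170 in the opposite set, and a median deposited mean of 130.4, against 197.6 and 127.4. These traits were thus shared with the opposite set. Of the members, 70.4% lay inside a gene, against 85.1%. The mutant difference varied with position, with a median of 0.40 over the 127 members near a gene end, 0.54 over 517 deeper inside genes and 0.65 over 251 between genes. In the same order the medians were -0.52, -0.55 and -0.61 in the opposite set, so its size rose there too. Over all tested regions they were 0.10, 0.04 and 0.08. The members' wild-type medians, which the rule used, were 1.21, 1.29 and 1.31. These medians were not split by the filter on low values. Position was not used by the rule, and the part of the lower signal level in these shares was not tested.

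The filter on low values also bears on the members. The shares within single genotypes were not split by it. Beside the 546 members with a mean under 100 over the 7 LT-HSC libraries, 2 had one under 100 over the 7 MPP3 libraries. Over the 10 mutant libraries alone, 738 reached a mean of 100, and with that filter the members' median difference was 0.53. Only 128 members had a mean of at least 200 over all libraries.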

How the data were processed

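ATAC-seq signal was deposited for 14 libraries over 705361 mm10 regions. The deposited signal values are whole numbers and behave as reads multiplied by a factor of the library and rounded, so no count test was used. The reads in regions could be estimated for 8 libraries as 7300000 to 18300000, and depth is unknown for the other libraries. The submitters' processing notes name R 3.6.0, DiffBind 2.12.0, edgeR 3.26.4 and HOMER 4.10 without a role, and the aligner and peak caller are not given in the sources used here.

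Regions on chromosomes 1 to 19 with a mean of at least 100 were kept, each library was scaled to a median of 200, and log2(signal + 4) was fitted with limma 3.58.1 (trend, robust; R 4.3.3) over the 6 mutant groups. A difference on this scale understates the change of low regions. P-values are two-sided and were adjusted by Benjamini-Hochberg over all 24627 regions, with a threshold of 0.05. The fit was tested on simulated data. Genes are RefSeq genes that overlap a region, protein-coding first, or the nearest within 100000 bases. Regions named in the text are the 10 of smallest p with a positive difference, the 5 most negative, the 5 of largest wild-type difference, up to 3 per gene list, 2 on each side of the rule's threshold and 3 per comparison of genotypes, plus those said to be chosen after their values were seen. One region that this rule names is not reported here. The members and gene lists were chosen with earlier results of these data known.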

Additional observations from a re-analysis of the deposited data

Results flagged for a closer look

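At 9 members the MPP3 minus LT-HSC difference was not the same in Npm1 and Dnmt3a by a test of the difference itself. All 9 were called lower (1.01%, against 1.51% of all tested regions), and 0 members higher, against 3.2%. With the share of signal as a covariate, 0 members and 0 of all tested regions were called. Of the 9, the 3 of smallest p, which are among the named regions, are repeated here. The difference between genotypes was -3.80 at Pik3r6 (SE 0.74, adjusted p = 0.0193, limma), -3.02 at Hand2 (SE 0.66, adjusted p = 0.0268, limma) and -1.67 at Zc3h7a (SE 0.40, adjusted p = 0.0319, limma). Each rests on the single LT-HSC Dnmt3a library and on the LT-HSC Npm1 libraries, which had the lowest share of signal in tested regions. With library totals the differences were -1.50 at Hand2 and -0.12 at Zc3h7a, neither past the threshold (adjusted p = 0.0809 and 0.885, limma).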

How the results depend on the processing

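Over the mutant genotypes, members called higher numbered 0, against 74 with library totals, 3 with no filter on low values and 1 with all 14 libraries in the fit, and 0 to 10 without 1 library at a time. Members higher at an unadjusted p under 0.05 numbered 59 with a row mean of at least 200 and 200 with the share of signal as a covariate (172 to 349 without 1 library), and 119 were above 0 with a row mean of at least 200, where 128 members are left (764 to 795 without 1 library). The median was 0.72 with library totals and 1.82 after background subtraction, an alternative chosen after seeing the data in which 23.1% of member values became 0, and 0.51 to 0.57 without 1 library. Library totals shifted the median of all tested regions to 0.26, and to 1.19 in Npm1.

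In Npm1, members called higher (23) were 4 with TMM, 537 with library totals, 4 with no filter, and 0 with the covariate and after background subtraction (0 to 67 without 1 library); those called lower (4) were 1 with library totals, 1 with no filter, and 0 with the covariate and background subtraction (0 to 15). In Dnmt3a, 2 were higher and 1 lower with library totals and 1 higher with no filter (0 to 7 higher and 0 to 1 lower without 1 library). In Dnmt3a;Npm1, 1 was higher with library totals (0 to 0 without 1 library). The medians without 1 library were 0.36 to 0.50 in Npm1, 0.63 to 0.68 in Dnmt3a and 0.48 to 0.58 in Dnmt3a;Npm1.

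For Npm1 against Dnmt3a, 211 were higher with library totals (23.6%, against 54.3% of all tested regions; 0 to 11 without 1 library), and the 9 lower were 1 with library totals, 5 with no filter, and 0 with the covariate and background subtraction (0 to 23). The median turned to 1.31 with library totals, 0.13 with the covariate and 2.45 after background subtraction (-0.31 to -0.12 without 1 library), and for Npm1 against Dnmt3a;Npm1 to 0.64, 0.0016 and 1.30 (-0.27 to -0.06). In MPP3, Npm1 against Dnmt3a gave 115 higher with library totals (12.8%, against 8.57% of all tested regions; 0 to 20; median 0.31 to 0.44). In LT-HSC, Npm1 against Dnmt3a;Npm1 gave 0 higher with TMM, 23 with library totals, 21 with no filter, and 0 with the covariate and background subtraction (0 to 47), and 55 lower with library totals (6.15%, against 33.3% of all tested regions; 0 to 1); its median turned to -0.24 with library totals and -0.44 after background subtraction (0.41 to 0.62). The cause of these changes was not tested.

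Members without overlap between cell types numbered 68, against 355 of all 24627 tested regions (1.44%). With TMM they were 56, against 320 (1.3%), and with library totals 91, against 288 (1.17%). Within 500 bases of a gene end were 10.9% of members, and within 5000 bases 30.5%. The replicate letters did not pair the libraries (correlations of deviations -0.12 to 0.07); with the replicate block, Npm1 against Dnmt3a gave 4 members lower, and Npm1 against Dnmt3a;Npm1 in LT-HSC 13 higher.

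Of 51 results on named regions, 22 values changed sign, all of them at 6 regions. Without both LT-HSC Npm1 libraries, also chosen after seeing the data, the difference is the average over Dnmt3a and Dnmt3a;Npm1. It was 0.017 at Ifi30, -0.408 at Cers6, 0.23 at Hdc (126601621) and 0.019 at Cdkn1a. With the covariate it was -0.375 at Cers6 and -0.074 at Cdk6, and with library totals 0.116 at Hdc. Tcn2, near 0, had -0.049 with TMM, -0.003 with cyclic loess, -0.005 with additive terms and -0.165 after background subtraction. Without 1 library at a time, values ran from -0.501 to 0.622 at Cers6, -0.287 to 0.069 at Hdc, -0.364 to 0.831 at Cdk6 and -0.178 to 0.185 at Tcn2.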
